A study of Mus musculus with 8 samples.

Results

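The 10 genes described here carry glucose into the heart muscle cell, trap it there and decide how much of the pyruvate made from it is burned. They are the glucose transporters Slc2a1 (GLUT1) and Slc2a4 (GLUT4), the hexokinases Hk1 and Hk2, the pyruvate dehydrogenase kinases Pdk1, Pdk2, Pdk3 and Pdk4, and Pdha1 and Pdhb, which encode the alpha and beta subunits of the E1 enzyme of the pyruvate dehydrogenase complex. Every non-control probe whose gene name in the array tables equals one of these symbols was taken, which gave 15 probes of 39429. All 15 probes passed the filter on dim signal, and the 10 genes were among 18250 genes tested.

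GLUT1 supplies basal glucose uptake, and GLUT4 moves to the cell surface when insulin or contraction calls for more. Hexokinases phosphorylate glucose so that it cannot leave the cell, and Hk2 is the insulin-responsive isoform of heart and skeletal muscle. The pyruvate dehydrogenase complex turns pyruvate into acetyl-CoA in the mitochondria, the kinases switch it off by phosphorylating the E1 alpha subunit, and the adult heart, which burns mainly fatty acids, raises Pdk4 in fasting.

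The series compared left ventricles of male C57Bl/6j mice, an inbred strain, on a low salt diet with 0.05% sodium or on normal chow with 0.4% sodium. The diets were given for the last 8 weeks before death at 16 weeks of age, 4 mice in each group, and the labels name no genetic change in either group. RNA of each mouse was labelled with Cy3 or Cy5, and each of 4 two-colour Agilent arrays, all on 1 slide, carried 2 mice of the same diet in opposite dyes. Mice 1 and 2 of a diet therefore shared an array, as did mice 3 and 4, and mice 1 and 3 were read in Cy3 and mice 2 and 4 in Cy5. Diet differed only between arrays, with 2 arrays per diet.

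Between 53.0% and 66.3% of the non-control spots of a sample were well above background. The 6 ventricular cardiomyocyte markers had a mean log2 intensity of 16.97 to 17.54 in low salt mice and 16.97 to 17.69 in normal salt mice. Of the marker lists of other cell types, macrophage genes averaged 9.86 to 10.28 in low salt mice and 9.48 to 9.74 in normal salt mice, and endothelial genes 10.68 to 11.01 in low salt mice and 11.00 to 11.33 in normal salt mice. Schwann cell genes averaged 7.55 to 7.83 in low salt mice and 7.90 to 8.06 in normal salt mice, so that this list and the macrophage list did not overlap between diets. The 4 atrial cardiomyocyte genes had the widest median difference, -1.52, and averaged 11.12 to 13.22 in low salt mice and 11.55 to 14.23 in normal salt mice. They did not go together: Myl4, Myl7 and Sln differed by -1.966, -1.073 and -2.165, and Nppa by 0.389. The median differences of the fibroblast and of the smooth muscle and pericyte lists were -0.10 and -0.30. No marker gene passed the test, and the part of these lists in the values below was not tested. In a whole-tissue sample fewer cells of a type and less RNA per cell cannot be told apart.

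Some probes share a gene, and for Hk1 they did not read alike. The array design places 2 Hk1 probes on chromosome 10 of the mm9 mouse build and the brightest one on chromosome 5. The sequences are shown because the result for Hk1 turns on which probe is read. Capitals mark AATAAA, the usual polyadenylation signal, searched on the probe strand only.
Hk1 probe at chr5:22118404-22118463, minus strand, bases 10 to 39 of 60: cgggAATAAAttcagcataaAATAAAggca
Hk1 probe at chr10:61732717-61732776, minus strand, all 60 bases: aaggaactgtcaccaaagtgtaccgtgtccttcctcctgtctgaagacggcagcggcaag

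The chromosome 5 probe holds 2 copies of the AATAAA letters, and 0.548% of the 39429 probes hold 2 or more, while 12.6% hold at least 1. The chromosome 10 probe shown holds none. The other chromosome 10 probe lies at chr10:61731856-61731915 and starts 861 bases further along the transcript. Which transcript the chromosome 5 probe reads was not settled here, so its values are those of a probe named Hk1. For Pdhb, the 2 bright probes lie at chr14:8998548-8998607 and chr14:8998505-8998562 and overlap by 15 bases, TCTACATTTGCTGTT, in which the capitals mark the shared run.

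None of the 10 genes passed the test for a diet difference. The test was limma's moderated test with diet and dye as terms and array as a random block, adjusted by Benjamini-Hochberg over all 18250 genes, with a threshold of 0.05. Of all genes, 144 passed it, which is 0.789%, with 137 higher (0.751%) and 7 lower (0.0384%) on low salt. Before adjustment 1 of the 10, Pdk2, was under 0.05, against 2014 genes or 11.0% of all, so its share is near the background. Hk1 is counted here from its chromosome 5 probe; read from either chromosome 10 probe it was under 0.05 too, which makes 2 of the 10. The median difference of the 10 genes, low salt minus normal salt, was -0.03 on the log2 scale, against 0.01 for all genes, and the median size of a difference was 0.0589 against 0.132. For 6 of the 10 genes the 95% interval of the difference lay within 0.5 on the log2 scale to either side of 0, or for 5 with Hk1 read from a chromosome 10 probe.

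**Figure D1:**
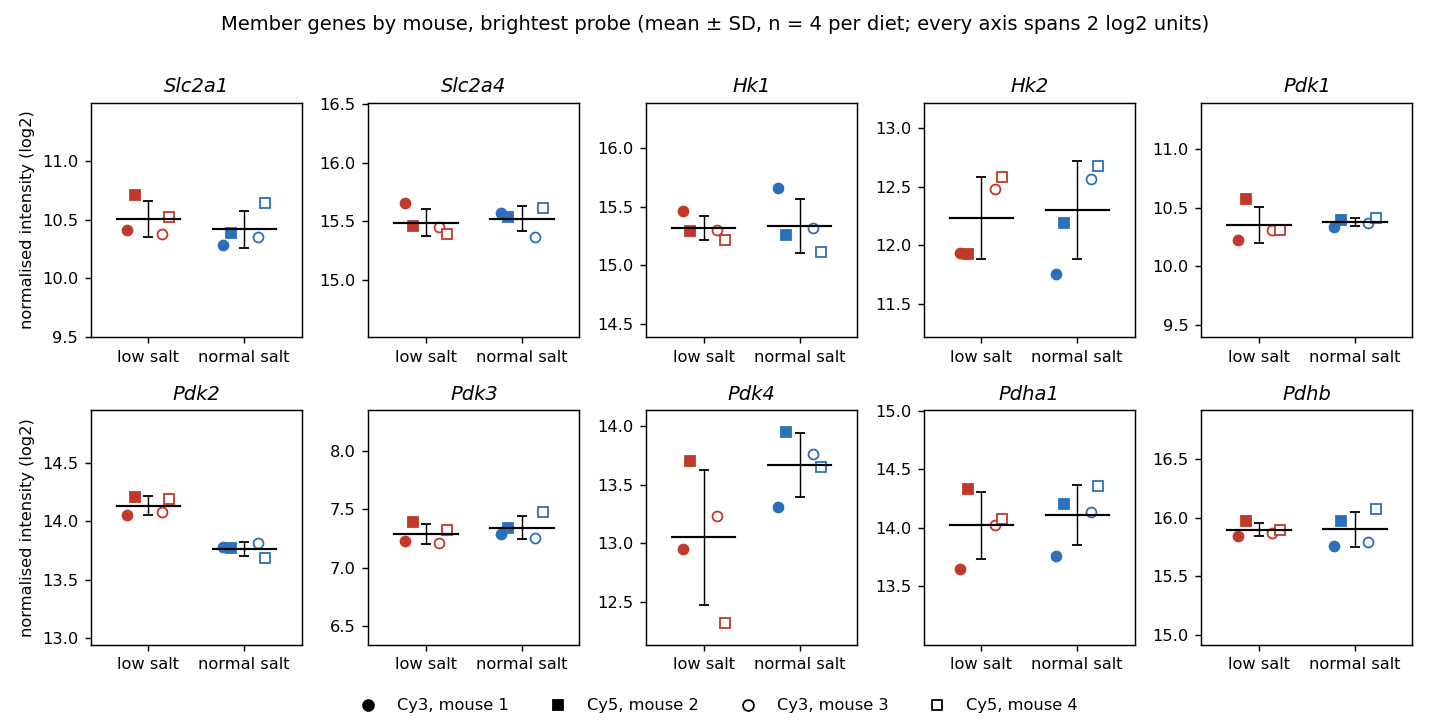
Normalised log2 intensity (vertical axis) of the brightest probe of each gene in 4 low salt mice (red, left) and 4 normal salt mice (blue, right), with the mean and SD as lines; circles are Cy3, squares Cy5, filled symbols the array of mice 1 and 2. Pdk2 alone among the 10 has diets that do not overlap, and Pdk4 spreads most, from 12.32 to 13.95.

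Slc2a1, the transporter of basal uptake, had log2 intensities of 10.41, 10.71, 10.38 and 10.52 in low salt mice, against 10.28, 10.39, 10.35 and 10.64 in normal salt mice. The diets overlapped almost fully. The difference was 0.09 (SE 0.11, 95% interval -0.17 to 0.35, limma adjusted p = 0.788). Both Cy5 mice of each diet read above both Cy3 mice, with a mean gap between dyes of 0.21. Slc2a1 is also a marker of blood vessel endothelium in some tissues, and the list of 6 endothelial genes had a median difference of -0.36, 5 of them below 0 and none past the threshold. Their part in the Slc2a1 value was not tested.

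Slc2a4, the insulin-responsive transporter, had log2 intensities of 15.66, 15.46, 15.45 and 15.39 in low salt mice, against 15.57, 15.54, 15.37 and 15.62 in normal salt mice. One low salt mouse was above every normal salt mouse and the others lay among them. The difference was -0.03 (SE 0.14, 95% interval -0.36 to 0.29, limma adjusted p = 0.943). Its probe is printed in 10 spots across each array, so that repeats of 1 probe can be compared. The diet difference of a spot ran from -0.23 to 0.31, with 4 spots higher and 6 lower on low salt and an SD of 0.189. The 2 spots with the highest difference lay where the neighbouring spots of other genes also read higher on low salt, by a median of 0.10 and 0.25, and each of them lacks the value of 1 mouse. Neighbours also read higher on low salt at 3 of the 6 spots that were lower. After subtraction of the local trend the spots still ran from -0.22 to 0.16. The other probes described here have 1 spot each, so their spread between spots was not measured.

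**Figure D2:**
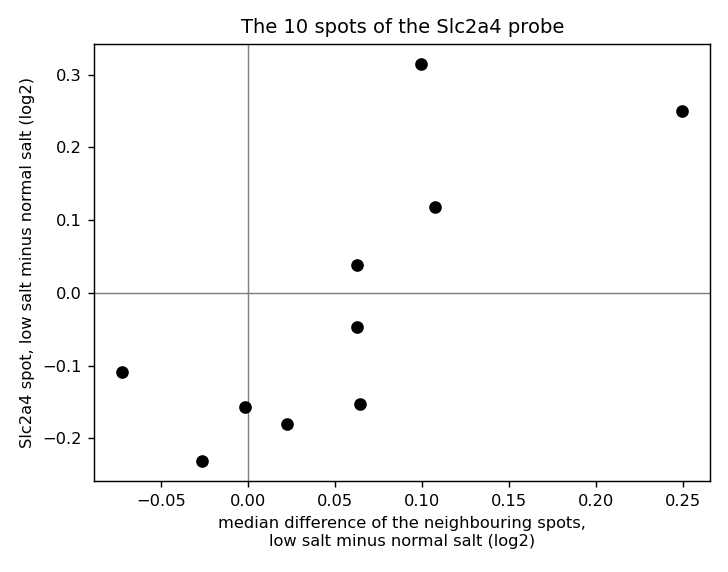
Diet difference of each of the 10 Slc2a4 spots (vertical axis, low salt minus normal salt, log2) against the median difference of the spots around it (horizontal axis, log2). The spots run from -0.23 to 0.31 although they carry 1 probe, and the neighbours are above 0 at all 4 spots above 0 and at 3 of the 6 spots below 0.

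Hk1, the hexokinase of most tissues, gave different results by probe. The chromosome 5 probe read 15.46, 15.29, 15.30 and 15.21 in low salt mice, against 15.66, 15.26, 15.31 and 15.11 in normal salt mice. The low salt mice lay inside the range of the normal salt mice, and the difference was -0.02 (SE 0.13, 95% interval -0.32 to 0.28, limma adjusted p = 0.967).

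The chromosome 10 probe that starts later in the transcript read 14.23, 14.22, 14.22 and 14.29 in low salt mice, against 13.76, 13.99, 13.85 and 13.96 in normal salt mice. All low salt mice were above all normal salt mice, as for 7.96% of genes. With every probe tested, which called 189 of 23236 probes or 0.813%, its difference was 0.35 (SE 0.10, 95% interval 0.11 to 0.58, limma adjusted p = 0.244, unadjusted 0.00888). Of the probes, 11.1% had an unadjusted p under 0.05.

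The chromosome 10 probe printed above read 9.28, 9.79, 9.49 and 9.81 in low salt mice, against 8.99, 9.40, 9.14 and 9.48 in normal salt mice. The diets overlapped for this probe, and in each diet the Cy5 mice read above the Cy3 mice. The difference was 0.34 (SE 0.10, 95% interval 0.10 to 0.58, limma adjusted p = 0.265, unadjusted 0.0105). Neither chromosome 10 probe passed the threshold, and both were higher on low salt in 17 of 17 other settings, by 0.31 to 0.38 and by 0.28 to 0.48. These settings reuse the same mice and include no fit without the array block, on array means or of either dye alone. The chromosome 5 probe ranged from -0.14 to 0.10 over the same settings.

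Hk2, the insulin-responsive muscle hexokinase, had log2 intensities of 11.94, 11.93, 12.49 and 12.59 in low salt mice, against 11.76, 12.19, 12.57 and 12.68 in normal salt mice. The split ran by array and not by diet: mice 1 and 2 averaged 11.93 and mice 3 and 4 averaged 12.54 on low salt, against 11.98 and 12.63 on normal salt. The difference between diets was -0.07 (SE 0.26, 95% interval -0.65 to 0.52, limma adjusted p = 0.939). The replicate spread of Hk2 was larger than that of 93.7% of the genes. Within the sample, Hk2 minus Hk1 (chromosome 5 probe) averaged -3.08 on low salt and -3.04 on normal salt, a difference of probe intensities whose zero has no meaning across probes. This balance was not computed from the chromosome 10 probes of Hk1, which read higher on low salt by 0.35 and 0.34.

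Pdk1, a kinase induced by low oxygen, had log2 intensities of 10.22, 10.57, 10.31 and 10.31 in low salt mice, against 10.34, 10.39, 10.37 and 10.41 in normal salt mice. The normal salt mice lay within the range of the low salt mice. The difference was -0.02 (SE 0.13, 95% interval -0.31 to 0.27, limma adjusted p = 0.955).

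Pdk2, a kinase expressed widely and found in heart, is read by 2 probes. The brighter one read 14.05, 14.21, 14.08 and 14.19 in low salt mice, against 13.78, 13.77, 13.82 and 13.68 in normal salt mice. All 4 low salt mice were above all 4 normal salt mice, which held for 7.96% of the genes measured in all 8 mice in this direction, and for 12.8% in either. None of the 10 genes had all low salt mice below all normal salt mice, which held for 4.85% of genes. The mean was 14.13 ± 0.08 on low salt and 13.76 ± 0.06 on normal salt (SD, n = 4 each), a difference of 0.37 (SE 0.11, 95% interval 0.11 to 0.63, or 1.08 to 1.55 in fold). It did not pass the threshold (limma adjusted p = 0.273, unadjusted 0.0106).

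The spot of that Pdk2 probe lies in the outermost column of the array, and the spots around it read higher on low salt by a median of 0.30. With this local trend subtracted the difference was 0.07 (adjusted p = 0.758), and on the scanner's own processed signal, which is corrected for a spatial trend per the file headers, it was -0.18 (adjusted p = 0.538). The direction of this brighter Pdk2 probe therefore turned with that scaling. The other Pdk2 probe read 11.65, 11.75, 11.74 and 11.70 in low salt mice, against 11.56, 11.39, 11.79 and 11.46 in normal salt mice. One normal salt mouse was above every low salt mouse for it. Its difference was 0.16 (SE 0.14, 95% interval -0.15 to 0.47, limma adjusted p = 0.677), its neighbours differed by -0.04, and with the local trend subtracted it was 0.20. On the processed signal this probe was at 0.29. It was higher on low salt in 17 of 17 other settings, by 0.09 to 0.29, and passed the threshold in none. These settings reuse the same mice and include no fit without the array block, on array means or of either dye alone.

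**Figure D3:**
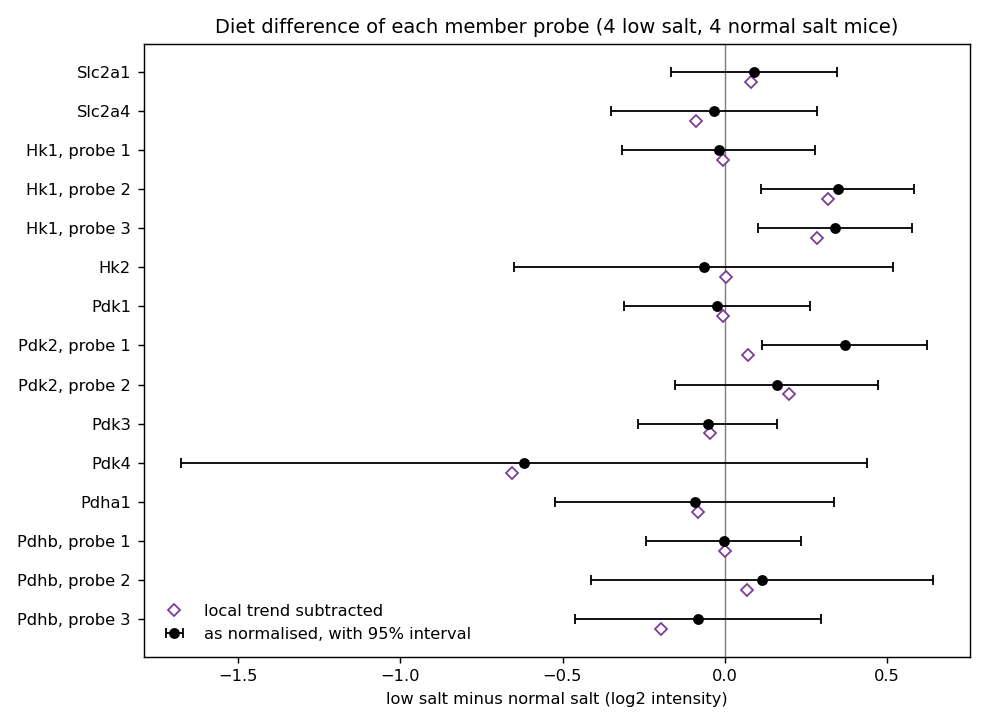
Diet difference (horizontal axis, low salt minus normal salt, log2 intensity) of each of the 15 probes, with 95% intervals as bars and, as diamonds, the value after the median of the neighbouring spots is subtracted. Pdk2 probe 1 drops to 0.07 once the neighbours are subtracted, while the Hk1 probes on chromosome 10 (probes 2 and 3) stand at 0.32 and 0.29.

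Pdk3 had log2 intensities of 7.23, 7.39, 7.21 and 7.33 in low salt mice, against 7.29, 7.34, 7.25 and 7.48 in normal salt mice. These values lie close to the floor of 5.64 that the background correction sets, although the spot was well above background in all 8 mice. The difference was -0.05 (SE 0.09, 95% interval -0.27 to 0.16, limma adjusted p = 0.855).

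Pdk4, the kinase raised by fasting and by fatty acids, had log2 intensities of 12.95, 13.70, 13.23 and 12.32 in low salt mice, against 13.31, 13.95, 13.76 and 13.66 in normal salt mice. Low salt mice 1, 3 and 4 were below every normal salt mouse and mouse 2 lay among them. The mean was 13.05 ± 0.58 on low salt and 13.67 ± 0.27 on normal salt (SD, n = 4 each), a difference of -0.62 (SE 0.47, 95% interval -1.69 to 0.46, limma adjusted p = 0.636, unadjusted 0.223). It had the widest spread of the 10 genes, larger than that of 95.9% of all genes. Without low salt mouse 4 the difference was -0.29. The interval admits a fold from 0.309 to 1.37, so with 4 mice per diet neither a marked decrease nor a modest increase was excluded. With the local trend subtracted the difference was -0.66.

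Within a sample, Pdk4 minus Pdk2 was -1.10, -0.51, -0.84 and -1.88 in low salt mice, against -0.47, 0.19, -0.06 and -0.03 in normal salt mice. All low salt mice were below all normal salt mice for this difference, narrowly, at -0.51 against -0.47. It combines a lower Pdk4 with the Pdk2 probe that lies among higher-reading neighbours. It averaged -1.08 ± 0.58 on low salt and -0.09 ± 0.28 on normal salt (SD, n = 4 each), and it was -0.38 between diets on the scanner's processed signal, against -0.99 here. With the other Pdk2 probe the diets overlapped, as low salt mouse 2 was above normal salt mouse 1. The pair was chosen with earlier results of these data known and is given with no test. How often other gene pairs separate the diets was not counted. Slc2a4 minus Slc2a1 averaged 4.99 on low salt and 5.11 on normal salt, and Pdhb minus Pdha1 averaged 1.88 on low salt and 1.79 on normal salt.

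Pdha1, the subunit the kinases phosphorylate, had log2 intensities of 13.65, 14.33, 14.02 and 14.07 in low salt mice, against 13.75, 14.20, 14.14 and 14.36 in normal salt mice. The diets overlapped, with the lowest mouse of each on the array of mice 1 and 2 in Cy3. The difference was -0.09 (SE 0.19, 95% interval -0.53 to 0.34, limma adjusted p = 0.874). The mean gap of Cy5 over Cy3 was 0.35, the widest of the 10 genes.

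Pdhb, the beta subunit, is read by 3 probes. The brightest read 15.85, 15.98, 15.87 and 15.90 in low salt mice, against 15.76, 15.98, 15.80 and 16.07 in normal salt mice. The low salt mice lay within the range of the normal salt mice, and the difference was -0.004 (SE 0.11, 95% interval -0.25 to 0.24, limma adjusted p = 0.994).

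The Pdhb probe that shares TCTACATTTGCTGTT with it read 15.38, 15.17, 15.34 and 15.14 in low salt mice, against 14.75, 14.70, 15.56 and 15.57 in normal salt mice. In normal salt mice the array of mice 1 and 2 stood apart from that of mice 3 and 4 for this probe, and the overlapping probe showed no such gap. Its difference was 0.11 (SE 0.23, 95% interval -0.41 to 0.64). The third Pdhb probe, at chr14:9003605-9003664, read 6.71 to 7.30 over the 8 mice and was well above background in 2 low salt and 2 normal salt mice.

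The other genes of glucose use were read from 7 lists of 86 genes, of which 78 were tested. The 8 untested ones, Slc2a2, Slc2a5, Slc2a9, Slc5a1, Slc5a2, Hkdc1, Gckr and Igfbp1, were well above background in too few samples. None of the 78 tested genes passed, and 3 of the 78 (Pdpk1, Vamp2 and Dlat) were under 0.05 before adjustment. Among all genes that share was larger, at 11.0%. The list of hexose kinases and enzymes that store or use glucose 6-phosphate had a median difference of 0.15, against 0.01 for all genes. In it 12 of 15 tested genes were higher on low salt. The list also holds the channel genes Vdac1, Vdac2 and Vdac3, which are no such enzymes and differed by 0.06, 0.14 and -0.05. Its genes with the smallest p were Ugp2, which makes UDP-glucose for glycogen, at 0.51 (limma adjusted p = 0.478), and the glycogen branching enzyme Gbe1 at 0.20 (adjusted p = 0.481). The 11 genes of lower glycolysis had a median of -0.04 and ran from -0.11 to 0.08, with Gapdh at -0.11 (adjusted p = 0.720) and Tpi1 at -0.07 (adjusted p = 0.781).

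Among the 6 other hexose transporters tested, the median was -0.01. Slc2a10 differed by 0.26 (limma adjusted p = 0.514) and Slc2a13, a myo-inositol transporter, by -0.15 (adjusted p = 0.658). Both read near the floor, at a mean of 7.12 on low salt and 6.86 on normal salt for Slc2a10, and of 7.11 on low salt and 7.27 on normal salt for Slc2a13. On the processed signal they differed by 0.58 and -0.40, and neither was well above background in all 8 samples. The 22 genes of insulin signalling and GLUT4 traffic had a median of 0.03. Pdpk1, the kinase that activates Akt, read 10.88, 10.81, 10.65 and 10.71 in low salt mice, against 10.38, 10.36, 10.49 and 10.45 in normal salt mice. All its low salt values were above all normal salt values, by 0.34 on average (limma adjusted p = 0.255). Its neighbours differed by 0.13, and its difference was 0.21 with the local trend subtracted and 0.15 on the processed signal. Vamp2, a vesicle protein that docks GLUT4 vesicles, read 10.06, 10.28, 10.38 and 10.39 in low salt mice, against 10.82, 10.67, 11.01 and 10.59 in normal salt mice. All its low salt values were below all normal salt values, with a difference of -0.50 (adjusted p = 0.374). Of the genes measured in all 8 mice, 4.85% were separated in this direction and 7.96% in that of Pdpk1. Other list genes did not overlap between diets either, among them Dlat, Gbe1, Hk3, Pygm and Tbc1d1 (higher) and Slc16a3 (lower). Counting both directions, 12.8% of the genes measured in all 8 mice did not overlap. The share within the lists was not counted.

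The 6 other genes of the pyruvate dehydrogenase complex and its phosphatases had a median of -0.21. Dlat, the E2 subunit, differed by 0.36 (limma adjusted p = 0.320), its neighbours by 0.21, and the rest after subtraction was 0.15. Dld, the E3 subunit, differed by -0.62 (adjusted p = 0.549). The 9 genes of pyruvate and lactate transport had a median of -0.02, with the pyruvate carrier subunit Mpc2 at -0.26 (adjusted p = 0.538) and the lactate exporter Slc16a3 at -0.16 (adjusted p = 0.562).

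**Figure D4:**
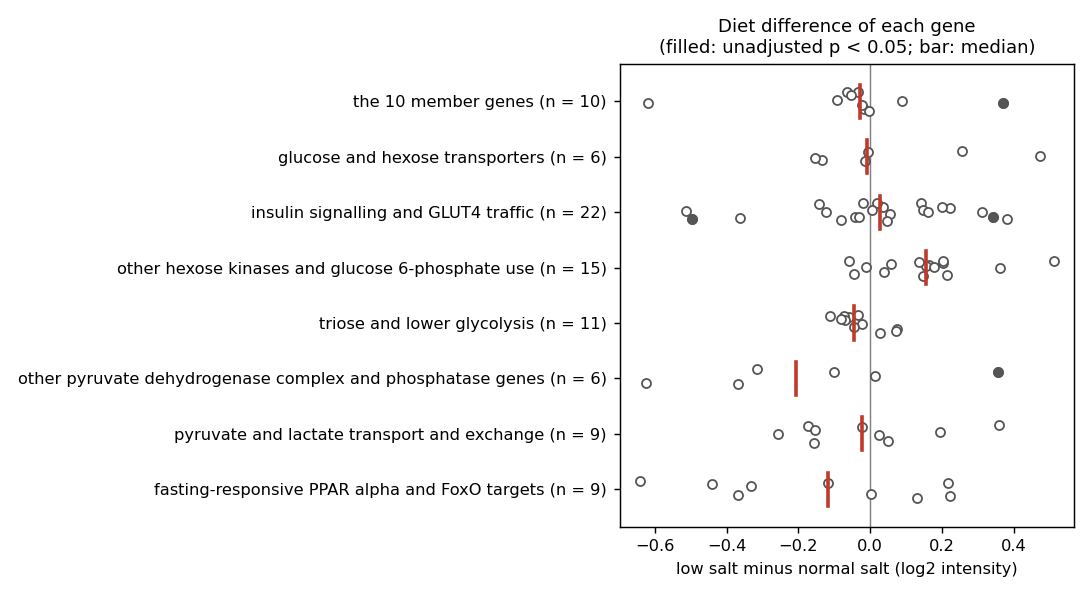
Diet difference (horizontal axis, low salt minus normal salt, log2 intensity) of each gene of the 10 and of the 7 lists; points are genes, red bars list medians, filled points genes with an unadjusted p under 0.05. Pdk4 at -0.62 and Pdk2 at 0.37 stand at the ends of the 10, and the others lie between -0.09 and 0.09.

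Pdk4 was set beside 9 genes that fasting, PPAR alpha or FoxO raise. They had a median difference of -0.12, and none passed the threshold, with Acot2 at -0.44 (limma adjusted p = 0.541) and Klf15 at 0.22 (adjusted p = 0.580) the smallest in p. Angptl4, a PPAR target that inhibits lipoprotein lipase, read 9.76, 11.59, 10.34 and 9.51 in low salt mice, against 11.01, 11.57, 10.83 and 10.37 in normal salt mice. Low salt mouse 4 was lowest and low salt mouse 2 the highest of its diet for both Pdk4 and Angptl4. Over the 8 mice Pearson's r with Pdk4 was 0.84 for Angptl4, 0.73 for Ucp3, 0.63 for Cpt1a and 0.62 for Acot1. It was 0.56 for Acot2, 0.00 for Klf15, -0.31 for Cited2 and -0.47 for Fbxo32. These values are a description over 8 mice that share arrays, dyes and diets in pairs, and no test was made of them.

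**Figure D5:**
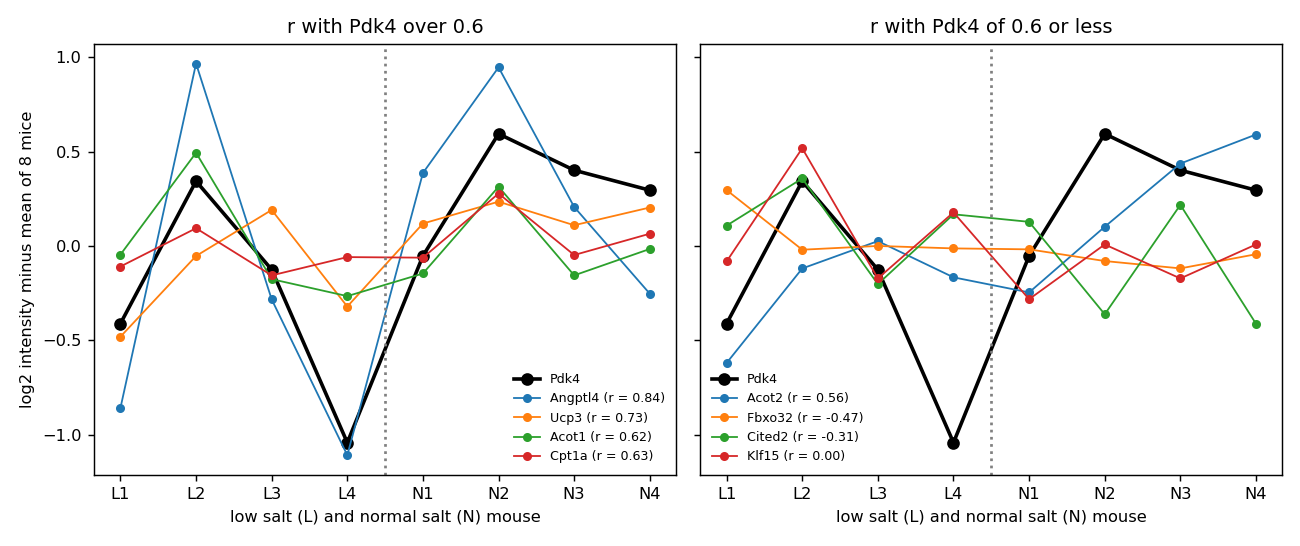
Log2 intensity minus the mean of the 8 mice (vertical axis) for Pdk4 (black) and 8 fasting-responsive genes (colours), by mouse, low salt (L) left of the dotted line and normal salt (N) right of it. Angptl4 follows the rises and falls of Pdk4 most closely (r = 0.84), while Klf15 does not follow it (r = 0.00).

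Among 14680 named genes measured in all 8 mice, those whose pattern was most like that of Pdk4 were Scaf4 (Pearson's r = 0.976), BC025920 (r = 0.962) and Rbms2 (r = 0.949). Their values ranged over only 0.29, 0.35 and 0.23 on the log2 scale, against 1.64 for Pdk4. Those most like Pdk2 were Med6 (r = 0.979), Gstp1 (r = 0.975) and Net1 (r = 0.975). These r include the diet gap of Pdk2; within diets r was 0.819, 0.714 and 0.890. The neighbours of these 3 spots also read higher on low salt, by a median of 0.31, 0.18 and 0.25. Of these genes Gstp1 passed the threshold, with a difference of 0.76 (limma adjusted p = 0.0165), which it lost in 13 of 24 other settings. Gstp2, a near-identical copy, may share the signal of its probe.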

How the data were processed

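Spot intensity and local background of both channels were deposited unnormalised; per the file headers the image was read with Agilent Feature Extraction 11.5.1.1 and its protocol GE2_1105_Oct12. Coordinates are on mm9. The deposited tables also carry a processed intensity, made, per the file headers, by subtracting background, removing a spatial trend and balancing the dyes. The authors' deposited value table holds a ratio with a median of 1 in each column. Its ranks followed the scanner signal at the same spot number at Spearman's rho of only 0.005 to 0.018, so it was not used for any gene.

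Mean signal was corrected with normexp (offset 50) against the median background, with the channel median where a background was flagged, then normalised by loess within and Aquantile between arrays in limma 3.58.1 under R 4.3.3, giving log2 intensity computed from the deposited intensity. Repeat spots were averaged per probe. A probe needed signal well above background in 4 or more samples, and a gene was read from its brightest probe. The linear model held diet, dye and a random array block (correlation 0.565), with a 2-sided threshold of 0.05 after Benjamini-Hochberg adjustment. The local trend is the median deviation of spots within 10 rows and 5 columns. P-values measure the spread between mice and between arrays of the same diet together, with the array correlation shared by all genes. They do not isolate the spread between mice, since diet differed only between arrays. Named probes took the symbol of their accession (27508), gene name (3544) or synonym (404), and 7973 kept the file's name. The code of the diet fit was tested on simulated data, and that of the normalization and the local trend was not.

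The 10 genes and all lists were chosen with earlier results of these data known. Genes were named by rule: all 10, then in each list the 2 with the smallest p, and the 3 most like Pdk4 and Pdk2; Angptl4, Ucp3, Acot1, Cpt1a, Cited2 and Fbxo32 were added after their values were seen. The values of 1 further gene of that list are not reported here. Mouse numbers are shared between diets as labels and go with dye, and the labels do not say whether same-numbered mice were paired. Hk2 split by array alike in both diets. The number of arrays limits the precision.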

Additional observations from a re-analysis of the deposited data

How the results depend on the processing

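Of the values of the 10 genes under other settings, 36 changed sign, 206 kept it and their side of the threshold, and 1 passed: Pdk2 at 0.37 with no array block (limma adjusted p = 0.0356), which made 1 gene of the 10 past it. Hk1 and Pdk2 were read there from their brightest probes, and their other probes were not run without the array block. The Pdk4 difference was below 0 and that of Slc2a1 above 0 in every setting run, and neither passed. Before adjustment the limma p of Pdk4 was under 0.05 in 2 fits, with the array handled otherwise. It was 0.0318 on array means (adjusted 0.525) and 0.0333 with the replicate block (adjusted 0.255). Of all genes, 1557 and 3139 were under 0.05 in these fits. On the scanner's processed signal Hk1 was 0.0025, Hk2 0.0337, Pdk1 0.0359, Pdk2 -0.18, Pdhb 0.0814, Dlat -0.15 and Pdk4 minus Pdk2 -0.38. Without normalization between arrays Pdhb was 0.0027 and Gapdh 0.10, and with quantile normalization Pdhb was 0.0023. In Cy3 samples alone Slc2a4 was 0.0854, Hk2 0.0484 and Pdhb 0.0809, and in Cy5 samples alone Hk1 was 0.0675 and Pdk1 0.0382. Leaving out the array of normal salt mice 1 and 2 gave Hk1 0.10, and that of normal salt mice 3 and 4 gave Hk2 0.26, Pdha1 0.0427 and Pdhb 0.0287. Leaving out the array of low salt mice 1 and 2 gave Hk2 0.24 and Dld 0.0433. Leaving out that of low salt mice 3 and 4 gave Slc2a4 0.0358, Hk1 0.0422, Pdk1 0.0191, Pdhb 0.0091, Gapdh 0.0099 and 1 list gene past the threshold, Dld at -1.29 (adjusted p = 0.015). With the local trend subtracted Hk2 was 0.0052. Read from another probe, an alternative chosen after seeing the data, Hk1 was 0.35 and Pdhb 0.11. Leaving out 1 mouse at a time moved Slc2a4 between -0.11 and 0.0370, Hk1 between -0.0540 and 0.0523, Hk2 between -0.19 and 0.0245, Pdk1 between -0.0989 and 0.0388, Pdha1 between -0.19 and 0.0075, Pdhb between -0.0414 and 0.0374, Pdk4 between -0.87 and -0.29, and Pdk2 between 0.32 and 0.42. The causes were not tested.

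The count of all genes past the threshold, 144 here, was 36 on the processed signal, 627 with no array block, 71 with the local trend subtracted and 52 to 109 without 1 mouse. It was 0 without normalization between arrays (782 at an unadjusted p under 0.05), on array means (1557), in Cy3 alone (1860) and in Cy5 alone (1263). Without 1 array it was 268 (normal salt mice 1 and 2), 204 (normal salt mice 3 and 4), 83 (low salt mice 1 and 2) and 1080 (low salt mice 3 and 4). The fit with the replicate block (mouse number) called 233 genes and 0 of the 10. Whether same-numbered mice were paired is not given by the labels. With dye removed, same-numbered mice correlated at -0.0097 to 0.134. Before that, all 4 low salt mice correlated best with their own number. The number of arrays, 2 per diet, limits every value.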

Other observations

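Dld, the E3 subunit of the pyruvate dehydrogenase complex, and Mpc2, a subunit of the mitochondrial pyruvate carrier, were low on the same array. Dld read 11.94, 12.22, 13.49 and 13.33 in low salt mice, against 13.24, 13.38, 13.50 and 13.37 in normal salt mice. Mpc2 read 15.08, 15.19, 15.59 and 15.53 in low salt mice, against 15.63, 15.58, 15.62 and 15.57 in normal salt mice. For both genes the mice of the first low salt array (mice 1 and 2) were below all other mice, and low salt mice 3 and 4 lay beside the normal salt mice. Their neighbouring spots differed between diets by -0.07 and -0.03, a value that averages over both arrays of a diet. The split was not particular to these 2 genes. The endothelial marker Tek and the pericyte marker Rgs5, named after their values were seen, showed it too. Tek read 7.94, 7.90, 8.85 and 9.08 in low salt mice, against 9.26, 9.20, 9.07 and 9.07 in normal salt mice. Rgs5 read 11.16, 11.65, 12.55 and 12.83 in low salt mice, against 12.65, 12.54, 12.81 and 12.81 in normal salt mice. Most markers of their lists did not show the split: not Kdr, Pecam1, Cdh5 or Eng, nor Myh11, Acta2, Tagln or Pdgfrb. For Esam mice 1 and 2 of low salt were lowest, but low salt mice 3 and 4 were below all normal salt mice too. With the array of low salt mice 3 and 4 left out, 1080 genes passed the threshold, 441 higher and 639 lower, against 137 higher and 7 lower with all arrays.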
